A study of Mus musculus with 101 samples.

Results

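The comparison set germ cells of F2 XY mouse embryos whose lineage began with a dam given benzo[a]pyrene (BaP) at the middle dose, 0.2 mg/kg-day, against those of F2 XY embryos of the vehicle lineage. Its samples were chosen by label alone, as F2 embryos of male sex in the middle dose and oil groups. They came to 3 exposed and 6 vehicle embryos, 9 of the 101 in the series. The series holds RNA-seq of embryonic gonad germ cells over 3 generations, and BaP is a polycyclic aromatic hydrocarbon of smoke and grilled food. Pregnant F0 females took BaP in sesame oil, or the oil alone, by mouth each day from E6.5 to E15.5. Their F1 offspring were bred to mates from another litter of the same dose, and the F2 embryos were taken at E13.5. No F2 embryo was itself dosed, but the F1 fetuses, whose germ cells gave rise to F2, were carried during the dosing.

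Each library came from the sorted gonad cells of 1 embryo, with no pooling. By their names the 9 embryos had 9 different dams, which are the mothers of the F2 embryos and not the dosed F0 females. The labels do not say how many F0 females these lineages began with. Embryos of a group may thus share an F0 ancestor, while the tests treat them as independent. All were of the OG2 strain, which carries EGFP under the promoter and distal enhancer of Pou5f1, and the cells were enriched by FACS on that EGFP. The paper states that the gate kept EGFP-positive germ cells and left out EGFP-negative somatic cells. It offers representative sort plots as evidence of purity. How many other gonad cells passed the sort in each of these 9 embryos is not given. The exposed embryos, named by dam and embryo number, were D1040.1, D1064.1 and D3371.2, and the vehicle embryos were C4988.2, C4992.2, D2991.3, D2996.2, D3001.1 and D3133.5. Recovered reads numbered 7350450, 7262911 and 7630722 in the exposed embryos and from 7061827 to 12211582 in the vehicle embryos. Levels are the deposited TMM-normalized counts (CPM), in which 1 read equals 0.0801 to 0.156 by embryo. They are compared between embryos and not between genes, except that most abundant means the highest normalized counts of a list.

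At this age XY germ cells sit inside cords of Sertoli cells, leave the cell cycle and begin the male program under signals from those cells. Macrophages, fetal Leydig cells and stroma lie around the cords. Germ cells are known by RNA-binding proteins such as Dazl and Ddx4 and by Pou5f1, the pluripotency factor that germ cells keep.

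The germ cell label fitted the defining genes. Dazl, a translational regulator of germ cells, stood at 1195, 1174 and 1008 in D1040.1, D1064.1 and D3371.2, and at 716, 833 and 1129 as the lowest, median and highest vehicle embryo. Ddx4, the germ cell helicase, stood at 442, 569 and 419, and in vehicle at 170, 320 and 567. Pou5f1 stood at 91.0, 87.8 and 112, and in vehicle at 54.3, 95.5 and 161. All 9 embryos expressed these genes, and the groups overlapped in each. Of the germ cell identity list, 22 of 22 genes were measured and none was at 0 in all 3 exposed embryos. Eif2s3y, a Y-linked translation factor, stood at 195, 285 and 175, and it was at 0 in the F2 XX embryos of both groups. Xist, the RNA of the inactive X, stood at 0.755, 1.09 and 0.126, and did not separate the sexes here, since F2 XX vehicle embryos ran from 0 to 2.11 with a median of 0.437. Dsp, S100a10 and Vamp8, the genes proposed with the comparison, are genes of epithelial junctions, membrane scaffolds and vesicle fusion, and are not germ cell markers.

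The vehicle embryos were not uniform. The first principal component of the 9 embryos carried 32.9% of the variance and set D3001.1 at -63 and D2996.2 at -36.2, away from the other 7, which lay between -6.53 and 28.7. The second carried 21.7% and set D1064.1 at 39.5, D3371.2 at 22.2 and D1040.1 at 7.12, with D3133.5 at the other end at -41.5. It did not part the groups, since vehicle embryos D2996.2 at 8.56 and C4988.2 at 5.96 lay beside D1040.1. Correlations between pairs of embryos lay from 0.94 to 0.986.

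In the exposed embryos 19 genes were lower and 0 were higher, by limma at an adjusted p under 0.05 over 13083 genes tested. The lower genes were 0.145% of those tested and the higher genes 0%. At an unadjusted p under 0.05 there were 1253 genes, or 9.58%. The 19 genes have varied roles and lie on 11 chromosomes. At a looser rule, an unadjusted p under 0.05 and at least a 1.5-fold difference, 661 genes were lower (5.05%) and 263 higher (2.01%), so that 71.5% of these were lower. Without vehicle embryos D2996.2 and D3001.1, left out together after the data were seen, 543 were higher at this rule, the lower share was 47.4% and limma called 0 genes lower. The median log2 difference over all genes was -0.01.

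The count depended on the tool and on the embryos that set the spread. The likelihood ratio test of edgeR on recovered reads called 61 lower and 18 higher, with 17 of the 19 among them, and DESeq2 called 58 and 11, with 16 of the 19. The quasi-likelihood test of edgeR called S100a10 lower and Nxf2 and Rrad higher. With limma on the 9 embryos alone, 0 genes were called and 935 had an unadjusted p under 0.05, with a smallest adjusted p of 0.38. It depended on single embryos too. In limma without D1064.1, D3371.2, C4992.2, D2996.2 or D3001.1, each left out in turn, 0 genes were called in either direction. Without D1040.1 there were 215 lower and 28 higher, and without C4988.2 there were 123 and 10. The looser higher count was 429 without D1040.1 and 100 without D1064.1.

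Dsp encodes desmoplakin, which ties desmosomes to intermediate filaments. Its level was 2.77 in D1040.1, 0.273 in D1064.1 and 0.252 in D3371.2, against a lowest, median and highest vehicle level of 2.73, 3.79 and 11.5. D1064.1 and D3371.2 were far below every vehicle embryo, and D1040.1 was just above the lowest. The means were 1.10 ± 1.45 (SD, n = 3) and 5.18 ± 3.43 (SD, n = 6). S100a10 encodes the partner of annexin A2 at the inner face of the plasma membrane, and its levels were 14.1, 12.5 and 6.43 against 18.7, 27.4 and 42.8 in vehicle. All 3 exposed embryos lay below all 6 vehicle embryos, with D3371.2 lowest, and means of 11.02 ± 4.05 (SD, n = 3) and 29.9 ± 10.3 (SD, n = 6). Vamp8 encodes a SNARE that fuses late endosomes and secretory vesicles with their targets, and its levels were 40.9, 24.0 and 22.8 against 40.5, 68.8 and 83.4. Here D1040.1 again reached the lowest vehicle embryo, and the other exposed embryos did not.

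The fitted log2 differences were -2.02 ± 0.36 (SE) for Dsp, -1.40 ± 0.25 for S100a10 and -1.20 ± 0.22 for Vamp8, each with a limma adjusted p of 0.0274, or 4.04-fold, 2.64-fold and 2.30-fold lower. The levels of Dsp rested on 2 to 119 reads per embryo, those of S100a10 on 51 to 438 and those of Vamp8 on 176 to 729. Over the leave-one-out fits the estimate ran from -2.72 to -1.66 for Dsp, from -1.61 to -1.07 for S100a10 and from -1.47 to -1.05 for Vamp8. Each of the 3 genes lost its call without D1064.1 (limma adjusted p = 0.107), without D3371.2 (0.474), without C4992.2 (0.0538), without D2996.2 (0.0684) and without D3001.1 (0.0578).

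On the mouse genome GRCm38, Dsp lies at chr13:38151294-38198577, S100a10 at chr3:93555117-93564645 and Vamp8 at chr6:72385221-72390667. Levels of the 3 genes in other groups show what range was measured elsewhere. In F2 XX vehicle embryos Dsp ran from 15.5 to 28.2, above all F2 XY embryos compared here, while S100a10 ran from 5.999 to 9.74 and Vamp8 from 61.8 to 93.8. In the F2 XY embryos of the 0.033 mg/kg-day lineage Dsp ran from 4.23 to 5.86, S100a10 from 24.6 to 36.4 and Vamp8 from 52.7 to 75.2. In those of the 2 mg/kg-day lineage Dsp ran from 1.93 to 2.94, S100a10 from 13.1 to 23.5 and Vamp8 from 40.3 to 63.6, which overlaps the vehicle range in each gene. XY vehicle embryos of other generations reached levels as low as those of some exposed F2 embryos. Dsp ran from 1.79 to 6.12 in F1 and from 1.97 to 6.73 in F3, S100a10 from 3.96 to 25.95 and from 8.36 to 35.7, and Vamp8 from 18.8 to 95.3 and from 29.4 to 81.0.

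The other 16 called genes had log2 differences from -2.01 to -1.04. Tmsb4x, the actin-sequestering thymosin beta 4, stood at 24.9, 12.3 and 3.15 against 28.8, 46.2 and 54.2, a log2 difference of -2.01 ± 0.40 (SE; limma adjusted p = 0.0335), with no overlap. Vim, the intermediate filament of mesenchyme and of Sertoli cells, stood at 18.5, 6.27 and 2.52 against 14.3, 23.3 and 66.8, a log2 difference of -1.85 (limma adjusted p = 0.0419). The highest vehicle value belonged to D3001.1, and D1040.1 overlapped the vehicle range. Spp1, the secreted matrix protein osteopontin, stood at 77.2, 41.7 and 15.01 against 74.8, 112 and 182, a log2 difference of -1.64 (limma adjusted p = 0.0335). D1040.1 was just above the lowest vehicle embryo, with the other exposed embryos below it.

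Genes of contacts between cells were among the rest. Gjb2, the gap junction protein connexin 26, stood at 0.252, 0.273 and 0 against 0.455, 1.70 and 4.26, with no overlap. Jam2, a junctional adhesion molecule, stood at 11.7, 7.09 and 3.66 against 12.4, 17.6 and 22.6, again with no overlap. Their log2 differences were -1.70 and -1.28, each with a limma adjusted p of 0.0358. Mall, a membrane raft protein of the MAL family, stood at 1.89, 0 and 0 against 1.52, 2.16 and 4.55, so that D1040.1 overlapped (-1.82, limma adjusted p = 0.0379). Mall was not called by the likelihood ratio test (edgeR adjusted p = 0.23) or by DESeq2 (0.246).

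The enzymes were Gstm7, Adh1 and Zdhhc2. Gstm7, a glutathione transferase, stood at 51.7, 25.9 and 8.95 against 45.0, 74.8 and 146. Adh1, an alcohol dehydrogenase that also oxidizes retinol, stood at 18.2, 10.5 and 3.41 against 17.9, 33.7 and 47.5. Zdhhc2, a palmitoyl transferase, stood at 3.40, 1.23 and 1.51 against 3.85, 5.68 and 7.64. D1040.1 overlapped vehicle in Gstm7 and Adh1, and no exposed embryo did in Zdhhc2. Their log2 differences were -1.77, -1.84 and -1.39.

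Bmyc, a short Myc relative, stood at 26.2, 12.4 and 10.3 against 20.8, 48.6 and 63.1 (-1.50, limma adjusted p = 0.0318). Ddx26b, now named Ints6l, differed by -1.04 and Zfp54, a zinc finger gene, by -1.29 in log2. Ddx26b stood at 1.76, 1.499 and 1.64 against 2.96, 3.61 and 5.62. Kcne1, a potassium channel subunit, stood at 0, 0.273 and 0.378 against 0.641, 1.46 and 1.86, on 0 to 19 reads. None of the 3 genes overlapped. Hist1h2bc, a histone H2B gene, and Clca1, a secreted regulator of chloride currents, completed the list at -1.15 and -1.52 (limma adjusted p = 0.0419 and 0.0445). Over the settings other than leave-one-out, Clca1 kept its call in 5 of 12, the fewest of the 19 genes. Mall kept it in 7 of 12, Vim in 7 of 13 and Hist1h2bc in 9 of 13. Of the 9 leave-one-out fits Hist1h2bc kept its call in 2 and Clca1 in 3, and no gene in more than 4.

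Ccl4, a chemokine that attracts macrophages and other leukocytes, had 0 reads in all 3 exposed embryos. The vehicle embryos had 15, 8, 3, 11, 29 and 11 reads, with levels from 0.468 through a median of 1.14 to 2.81. Against a floor of 3 reads per library, a mean of 0.388, the exposed level was at least 3.51-fold lower, which covers counting error only (limma adjusted p = 0.0384).

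**Figure D1:**
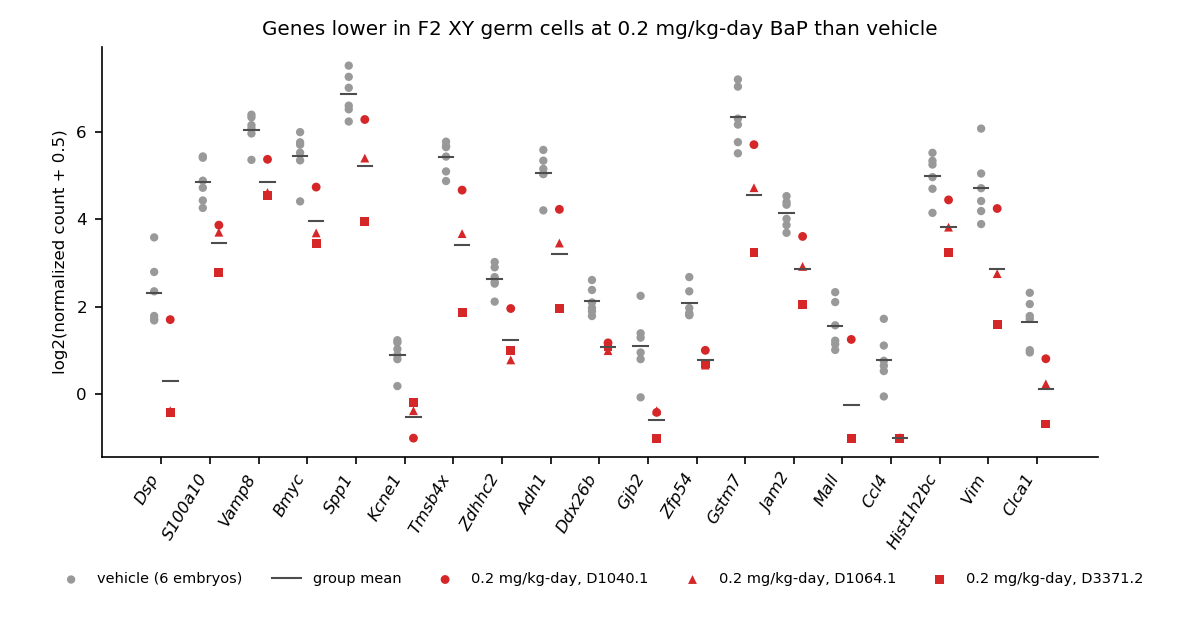
Level of each of the 19 genes lower in the exposed embryos, on the vertical axis as log2 of the normalized count plus 0.5, with 1 point per embryo. Grey points are the 6 vehicle embryos, red symbols the 3 exposed embryos and short lines the group means on that scale. D3371.2, the square, is the lowest of the 9 in 15 genes, counting ties at 0.

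Most of the 19 genes ordered the embryos in a similar way, and Kcne1 ran the other way among the exposed embryos. D3371.2 was the lowest of the 9 in 15 genes, counting ties at 0 in Mall and Ccl4. D1040.1 was the highest of the 3 exposed embryos in 16. D1040.1 was at or above the lowest vehicle embryo in 9 genes, and D1064.1 and D3371.2 were so in 0. In the vehicle group D2996.2 or D3001.1 was highest in 13 genes and C4988.2 lowest in 13. In 10 of the 19 genes all 3 exposed embryos lay below all 6 vehicle embryos. Since the same embryos chose the 19, nothing is read from these counts or from the order. Over all genes tested, 201 (1.54%) lay below in this way and 187 (1.43%) above.

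Most Sertoli cell genes had lower estimates, though in limma at the main setting 0 passed the adjusted p. Of 20 listed genes 19 were measured and 18 tested, and 16 of the 18 were lower at the looser rule, where 5.05% of all genes were. The median log2 difference of the 18 was -1.54, beside -0.01 over all genes. DESeq2 called Sox9 lower, beside 58 of all 13083 genes, and the edgeR tests called 0 of the list. Limma called 8 of the list with array weights, which let an embryo far from its group count less. That fit called 116 of all 13083 genes lower. With a pseudocount of 1 it called Sox9 and Fgf9, and with no filter Fgf9, where 23 and 22 genes were lower. Limma called 13 without D1040.1, where 215 of all 13093 genes were lower, and 6 without C4988.2, where 123 of 13099 were. It called Vnn1 without D2991.3 and Sox9 without D3133.5, where 24 genes were lower in each fit. Summed over the list, the level was 758 in D1040.1, 645 in D1064.1 and 82.5 in D3371.2, against a lowest, median and highest vehicle sum of 606, 1178 and 1740. D3371.2 was far below every other embryo, and D1040.1 and D1064.1 lay within the vehicle range near its low end. The highest vehicle sums were those of D2996.2 and D3001.1, at 1740 and 1649. The lowest were those of D3133.5 and C4988.2, at 606 and 713.

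Cst9, a cystatin of Sertoli cells, had the highest normalized count of the list, at 264, 296 and 24.5 against 264, 494 and 639. Sox9, the factor that directs Sertoli fate, stood at 2.52, 2.59 and 0.631 against 3.44, 5.90 and 20.2, a log2 difference of -1.71 just outside the threshold (limma adjusted p = 0.0593). All 3 exposed embryos were below all vehicle embryos in Sox9. Amh, the hormone that removes the Mullerian duct, stood at 1.89, 0.681 and 0.126 against 0.623, 1.45 and 12.3 and overlapped. In D3371.2 Dhh, Fgf9 and Inhbb were at 0, and in the other 8 embryos no gene of the list was. Dmrt1, which germ cells also express, had a log2 difference of 0.08. The part of Sertoli cell RNA in the 19 genes was not tested, and in these bulk samples fewer cells of a type and less RNA per cell cannot be told apart.

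Macrophage genes had lower estimates too. Of 18 listed genes 17 were measured and 13 tested, and 9 of the 13 were lower at the looser rule, where 5.05% of all genes were. All 13 estimates were below 0, with a median of -1.08 beside -0.01 over all genes. In limma at the main setting 0 passed the adjusted p, while the likelihood ratio test and DESeq2 each called Fcer1g and Tyrobp and quasi-likelihood called 0. Of all 13083 genes, 61, 58 and 1 were lower in those tests. Limma called 5 of the list with array weights, 4 without D1040.1, 2 without C4988.2 and 2 without D2991.3. Of all genes, 116, 215, 123 and 24 were lower in those fits. The summed level was 15.98, 14.3 and 2.52 against 13.3, 36.6 and 61.9 in vehicle. D3371.2 was lowest of all, and the other exposed embryos lay just above the lowest vehicle embryo, D2991.3. C1qb, a complement subunit made by macrophages, was the most abundant, at 2.39, 1.499 and 0 against 1.09, 5.01 and 12.1. In D3371.2 10 of the 17 genes were at 0, among them Csf1r, Lyz2, C1qa, C1qb and C1qc. Fcer1g, a signalling chain of leukocyte receptors, stood at 0.881, 1.09 and 0.126 against 1.87, 4.33 and 7.58 (-1.99, limma adjusted p = 0.0593). The part of macrophage RNA in the result was not tested.

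Fetal Leydig genes numbered 10 measured and 6 tested, of which 3 were lower at the looser rule, beside 5.05% of all genes, with a median of -0.69. In limma at the main setting 0 passed the adjusted p, and the likelihood ratio test called Insl3, a Leydig cell hormone, where 61 of all 13083 genes were lower. With array weights, or without D1040.1 or D2991.3, limma called Hsd3b1, and without C4988.2 it called Hsd3b1 and Insl3. Of all genes, 116, 215, 24 and 123 were lower in those fits. Their summed level was 56.6, 48.8 and 52.1 against 53.2, 71.5 and 91.6, most of it from Fdx1, a mitochondrial ferredoxin that many cells express. Hsd3b1, a steroidogenic enzyme, stood at 1.89, 0.273 and 0 against 1.87, 4.50 and 11.6. Cyp17a1, the defining androgen-synthesis enzyme, was at 0 in all 3 exposed embryos and also in vehicle embryos C4988.2 and D2991.3. Of the stroma list 16 genes were measured and 6 tested, with 2 lower at the looser rule, Vim and Sparc, beside 5.05% of all genes. Limma without D1040.1 called Sparc as well as Vim, where 215 of all 13093 genes were lower. The stroma list's summed level was 73.8, 33.0 and 14 against 50.1, 69.5 and 242, with Sparc, a matrix protein, the most abundant. The collagen Col1a1 was at 0 in all 3 exposed embryos and in vehicle embryos C4988.2, D2991.3, D3001.1 and D3133.5, and the nuclear receptor Nr2f2 in all 3 and in D2991.3. D1040.1 lay inside the vehicle range of this sum and the others below it. The part of these cells in the result was not tested.

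Endothelial genes summed to 44.2, 32.6 and 60.3 against 37.2, 50.7 and 60.5, with 0 of 8 at the looser rule. Mesonephric epithelium genes summed to 430, 300 and 355 against 389, 446 and 514, mostly Epcam, an adhesion protein that germ cells express too. Of the 10 tested, 3 were lower at the looser rule, beside 5.05% of all genes. Limma called Spp1, where 0.145% of all genes were called, and without D1040.1 Krt18 too, where 215 of all 13093 genes were lower. Pregranulosa genes summed to 8.55, 7.63 and 4.79 against 4.99, 11.1 and 33.8. Of the 6 tested, 2 were lower and 1 higher at the looser rule, beside 5.05% and 2.01% of all genes, with a median of -0.37. Coelomic epithelium genes summed to 14.5, 13.5 and 18.3 against 15.4, 17.4 and 22.4, with 0 of 4 at the looser rule. Mast cell genes summed to 33.5, 15.7 and 24.5 against 31.95, 38.0 and 60, mostly Kit, a receptor that germ cells express. Of the 3 tested, 2 were lower at the looser rule, Kit and Cpa3, beside 5.05% of all genes. DESeq2 called Cpa3 lower, beside 58 of all 13083 genes, and limma and the edgeR tests called 0 of the 3. Cpa3, a mast cell protease, was at 0 in all 3 exposed embryos, in vehicle embryos C4988.2 and D2991.3, and in every F2 XY embryo of the other BaP doses. Globin genes were highest in vehicle embryo D2991.3, where Hba-a1 read 707, and next in C4992.2 at 36.9, while the median vehicle embryo read 0.392 and the exposed embryos 0.881, 0 and 0.

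**Figure D2:**
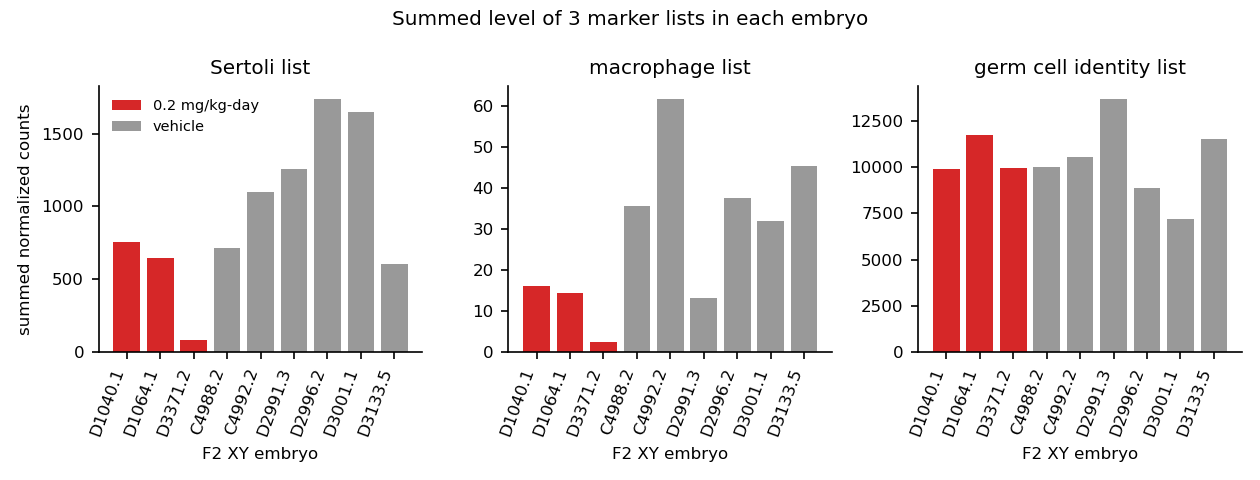
Summed normalized counts, on the vertical axis, of the Sertoli, macrophage and germ cell identity lists, with 1 bar for each of the 9 F2 XY embryos. Red bars are exposed and grey bars vehicle embryos; D3371.2 has the lowest Sertoli and macrophage sums, at 82.5 and 2.52, and germ cell identity sums overlap.

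Within the list of epithelial junction, keratin and S100 genes, 36 were tested, and Dsp, S100a10 and Vamp8 passed the adjusted p in limma at the main setting, beside 0.145% of all genes. Since these are the 3 genes proposed with the comparison, nothing is read from that count. At the looser rule 10 were lower and 1 higher, beside 5.05% and 2.01% of all genes, and the median was -0.51. S100a11, a calcium-binding partner of annexins, stood at 35.5, 18.7 and 8.20 against 26.5, 36.7 and 106 (-1.42, limma adjusted p = 0.0694). Dsg2, a desmosomal cadherin, stood at 1.51, 0.545 and 0.883 against 0.935, 2.28 and 4.84. D1040.1 overlapped vehicle in both genes. S100a11 was called by the likelihood ratio test, by DESeq2, and by limma with array weights and without C4988.2. Of all genes, 61, 58, 116 and 123 were lower in those fits. Without D1040.1 limma called 7 of the list, with S100a11, Dsg2, Krt18 and S100a13 besides the 3. In that fit 215 of all 13093 genes were lower. Quasi-likelihood, on all 9 embryos, called S100a10 alone of the list, and it was the 1 lower gene of all that it tested. The most abundant members did not differ beyond their spread: Epcam stood at 321, 230 and 313 against 258, 291 and 319, and Spint2, a protease inhibitor, at 120, 165 and 125 against 113, 154 and 176. The list's summed level was 852, 841 and 799 against 843, 955 and 1089.

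Among 21 SNARE genes of membrane traffic, Vamp8, counted above as well, alone passed the adjusted p in limma at the main setting, beside 0.145% of all genes, and nothing is read from that count either. At the looser rule 2 were lower, beside 5.05% of all genes, and the median was 0.07. The other was Vamp5, a SNARE of the plasma membrane, at 2.39, 1.499 and 0.505 against 2.32, 5.71 and 7.79 (-1.62, limma adjusted p = 0.0694). Vamp5 was called by the likelihood ratio test, by DESeq2, and by limma with array weights, without D1040.1 and without C4988.2. Of all genes, 61, 58, 116, 215 and 123 were lower in those fits. Vti1b and Snap23, the most abundant SNAREs here, had log2 differences of 0.13 and -0.01. Of 21 glutathione and Nrf2 genes, a list that does not hold the called gene Gstm7, 4 were lower at the looser rule, beside 5.05% of all genes. In limma at the main setting 0 passed the adjusted p, while the likelihood ratio test and DESeq2 each called Gstm1 and Gsta4, and quasi-likelihood called 0. Of all genes, 61, 58 and 1 were lower in those tests. Limma called 3 of the list with array weights and 3 without D1040.1, Gstm1 and Gsta4 without C4988.2, and Gsta4 without D3133.5. Of all genes, 116, 215, 123 and 24 were lower in those fits. Gstm1, an abundant glutathione transferase, stood at 824, 629 and 397 against 760, 1005 and 1525, and Mgst1, a membrane-bound glutathione transferase, at 47.2, 42.1 and 2.65 against 52.0, 91.0 and 129. D3371.2 was the lowest embryo in both.

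Most estimates of germ cell genes were above 0, and in limma at the main setting 0 of the identity and piRNA lists passed the adjusted p. The likelihood ratio test called Mael and Taf7l of these lists higher (edgeR adjusted p = 0.047 and 0.043), quasi-likelihood and DESeq2 called 0, and limma without C4988.2 called Mael. Of all genes, 18, 2, 11 and 10 were higher in those fits. In the identity list 16 of 22 estimates were above 0, with a median of 0.30, and 2 genes were higher and 1 lower at the looser rule, beside 2.01% and 5.05% of all genes. In the list for piRNA, the small RNAs that silence transposons, 17 of 17 tested estimates were above 0, with a median of 0.44 and 2 genes higher at the looser rule. Its summed level was 1143, 1841 and 1127 against 573, 1034 and 1430, so that D1064.1 alone lay above the vehicle range. Mael, a piRNA pathway protein, stood at 122, 254 and 112 against 56.4, 84.9 and 125 (0.85, limma adjusted p = 0.124). Nanos2, which holds germ cells in the male program, stood at 1.89, 10.8 and 4.29 against 0, 0.841 and 3.13 (1.91, limma adjusted p = 0.101). Limma without D1040.1 called Nanos2 higher, where 28 of all 13093 genes were. D1064.1 was above all vehicle embryos in both genes, and D3371.2 in Nanos2. Nanos3, a related RNA-binding protein, stood at 66.2, 230 and 104 against 50.6, 84.6 and 121.

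The male fate list had 2 of 17 genes higher and 0 lower at the looser rule, beside 2.01% and 5.05% of all genes, with a median of 0.21. Its summed level was 522, 619 and 555 against 440, 495 and 511, above all vehicle embryos in all 3, and was not tested. No single tested gene of the list lay above in this way, where 1.43% of all genes did. Within it Lhx1, a homeobox gene of male germ cells, had a log2 difference of 0.21, Tdgf1, the Nodal co-receptor, -0.02, and Lefty2, a Nodal inhibitor, -0.14. Stra8, the gene of meiotic entry, stood at 2.26, 4.36 and 2.40 against 0, 1.62 and 3.04. Of 27 meiotic genes 3 were higher and 1 lower at the looser rule, beside 2.01% and 5.05% of all genes, with a median of 0.19. The pluripotency list had 0 higher and 1 lower of 19, beside the same shares, with a median of -0.07. Of 26 proliferation genes 0 passed either rule in limma, with a median of -0.02. Ahr, the receptor that BaP binds, stood at 5.03, 2.998 and 3.03 against 1.40, 3.73 and 5.62, and its targets Cyp1b1 and Tiparp differed by -0.49 and 0.16. All 9 tested genes of that list failed the looser rule. Cyp1a1, the best-known target, was below the filter, at 0, 0.136 and 0. Of 20 p53 targets 2 were higher and 2 lower at the looser rule, beside 2.01% and 5.05% of all genes, with Bax, a pore former of apoptosis, at -0.01.

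Of the 18 higher genes of the likelihood ratio test, D1064.1 was the highest of the 9 embryos in all 18, and over 3 times the next embryo in 12. In 2, Snx1 and Pnldc1, all 3 exposed embryos lay above all 6 vehicle embryos, as did 187 (1.43%) of all genes tested. Since the same embryos chose the 18, nothing is read from these counts. Snx1, a sorting nexin of endosomes, stood at 51.3, 60.8 and 54.1 against 30.5, 34.7 and 43.1. Pnldc1, the enzyme that trims piRNA, stood at 54.0, 88.3 and 64.8 against 27.9, 40.8 and 52.5. The levels of other genes were far higher in 1 embryo. Nxf2, an X-linked RNA export factor of germ cells, stood at 3.40, 150 and 3.66 against 0.872, 2.38 and 4.14, with D1064.1 alone above the vehicle range. Xlr5a, an X-linked gene of a family of near-identical copies, stood at 20.4, 327 and 32.3 against 9.10, 26.5 and 41.1, and Xlr5b and Xlr5c followed it, at 222 and 187 in D1064.1. Rrad, a small GTPase, stood at 0.126, 15.8 and 0.631 against 0, 0.253 and 0.401. In limma at the main setting none of these 7 genes passed the adjusted p. Limma called Snx1 with array weights, Snx1 and Pnldc1 without C4988.2, and Pnldc1 and Rrad without D1040.1. Of all genes, 6, 10 and 28 were higher in those fits.

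Whether the differences belonged to the middle dose was asked by direct contrasts that leave the vehicle embryos out. Against the 3 F2 XY embryos of the 2 mg/kg-day lineage, limma called 0 genes, with 641 (4.90%) at an unadjusted p under 0.05 and 0 by either edgeR test or DESeq2. Against the 3 of the 0.033 mg/kg-day lineage limma called 0, with 715 (5.47%) at an unadjusted p under 0.05 and a smallest adjusted p of 0.0715. There the likelihood ratio test called 6, quasi-likelihood 0 and DESeq2 12, all lower at 0.2 mg/kg-day, and limma called 126 without D1040.1. For Dsp the log2 differences were -1.23 from the 2 mg/kg-day group and -2.20 from the 0.033 mg/kg-day group. For S100a10 they were -0.72 and -1.46, and for Vamp8 -0.78 and -1.12. All 19 called genes had estimates below 0 in both contrasts, a direction that the choice of the genes helps to fix since the exposed embryos are the same.

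The test of the sex difference in the effect compared XY with XX embryos of the same 9 dams. It called 0 genes in limma, with 643 (4.91%) at an unadjusted p under 0.05, 1 by the likelihood ratio test, Ccl4, and 0 by quasi-likelihood and by DESeq2. Without D1040.1 limma called 8. A paired fit, in which each XY embryo is compared with the XX embryo of its dam, was added after the data were seen and called 0 in limma, with 729 at an unadjusted p under 0.05. The test against F3 called 0 of 13084 genes in limma, with 1020 (7.80%) at an unadjusted p under 0.05. By the likelihood ratio test and by DESeq2 1 was called, Phlda2, an imprinted growth regulator, and quasi-likelihood called 0. The test against F1, whose embryos lay inside dams dosed from E6.5 to E11.5, called 0 in limma and in the edgeR and DESeq2 tests, with 389 (2.97%) at an unadjusted p under 0.05. With array weights limma called 192 genes in the test against F3.

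Side by side, the median log2 difference of the 19 genes from vehicle was 0.03 in F2 XY at 0.033 mg/kg-day and -0.72 at 2 mg/kg-day. These contrasts share the 6 vehicle embryos with the comparison, which helps to fix their direction. At 0.033 mg/kg-day 9 of the 19 were below 0 and 2 had a limma unadjusted p under 0.05, beside 1.57% of all genes. Ccl4 was at -1.42 there (limma unadjusted p = 0.000716). At 2 mg/kg-day 19 of 19 were below 0 and 10 had a limma unadjusted p under 0.05, beside 3.71% of all genes. The median was -0.13 in F2 XX, 0.25 in F1 XY and -0.22 in F3 XY at 0.2 mg/kg-day, which have other vehicle embryos. The F2 XX embryos are littermates of the F2 XY embryos, and the exposed F1 and F3 XY groups each hold 2 embryos of the same dam, so these groups are not independent throughout. For S100a10 the differences were -0.17 in F2 XX, 0.52 in F1 XY and -0.83 in F3 XY, and for Dsp -0.17, 0.25 and 0.76. The Sertoli sum ran from 1140 to 1614 in F2 XY at 0.033 mg/kg-day, from 295 to 1311 at 2 mg/kg-day, from 105 to 619 in F3 XY at 0.2 mg/kg-day and from 45.2 to 67.6 in F2 XX at 0.2 mg/kg-day. In F1 XY it ran from 272 to 1902 at 0.2 mg/kg-day and from 109 to 1258 in vehicle, and in F3 XY vehicle from 117.5 to 1692, so that low sums occurred in vehicle embryos as well. The macrophage sum ran from 2.72 to 28.3 in F2 XY at 0.033 mg/kg-day and from 9.02 to 20.7 at 2 mg/kg-day, with medians of 16.2 and 14.5 beside 36.6 in the vehicle embryos they share. In F2 XX it ran from 11.3 to 24.4 at 0.2 mg/kg-day against 22.9 to 59.6 in vehicle, and in F3 XY from 19.4 to 37.0 against 3.195 to 53.6. In F1 XY the macrophage sum ran from 5.61 to 109 at 0.2 mg/kg-day against 8.97 to 43.5 in vehicle. For C1qb the log2 differences were -1.26 and -1.62 in F2 XY at 0.033 and 2 mg/kg-day and -1.51 in F2 XX. The limma unadjusted p were 0.0357, 0.00815 and 0.0128, and limma called C1qb in none of these. At 0.2 mg/kg-day its differences were 0.00 in F1 XY and 0.93 in F3 XY.

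**Figure D3:**
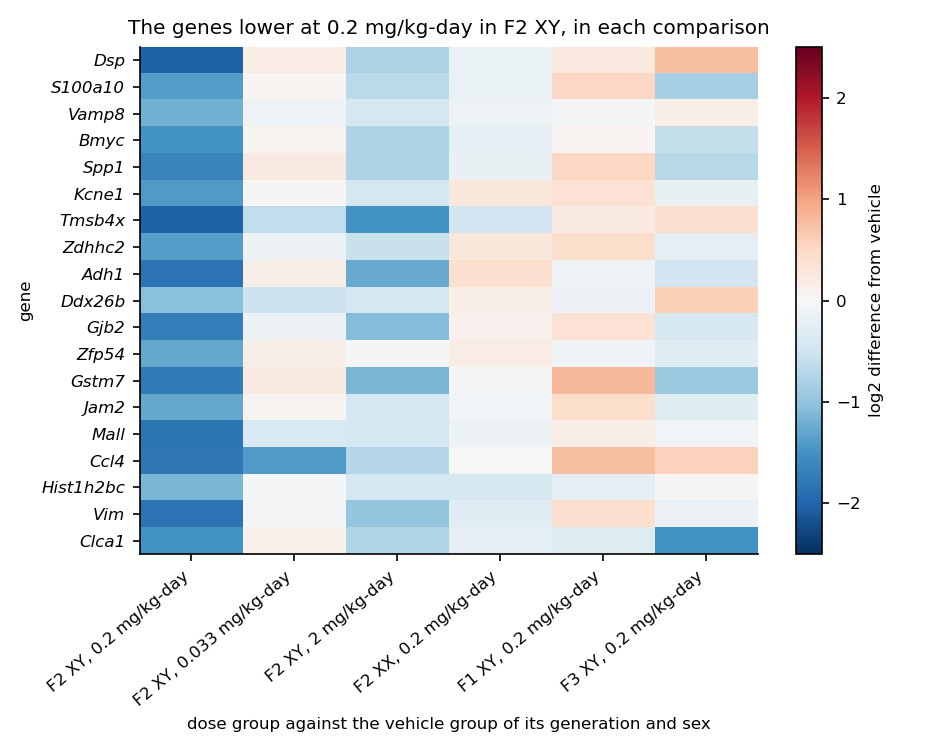
Log2 difference from the vehicle group of the same generation and sex, as color, for each of the 19 genes in 6 comparisons. The first 3 columns share the F2 XY vehicle embryos; the median is -0.72 at 2 mg/kg-day and 0.03 at 0.033 mg/kg-day.

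The promoters of called genes were searched for GCGTG on either strand, the core of the site that Ahr binds. RefSeq promoters of GRCm38.p6, 250 bases before to 50 after the gene start, were found for 12 of the 19 genes, as 16 promoters. S100a10 had no entry. The motif was in 6 of the 16 (37.5%) and in 10639 of all 32851 promoters (32.4%), so the share was near that of all promoters. By gene it was in 5 of the 12, and 2 of the 6 promoters are overlapping ones of Zfp54 that hold the same site. Both sequences are shown because Dsp and Vamp8 are among the genes with the smallest p, Dsp at chr13:38151044-38151343 on the plus strand and Vamp8 at chr6:72390618-72390917 on the minus strand. Capitals mark the motif, which is in the Dsp promoter in its reverse complement and not in that of Vamp8.
Dsp: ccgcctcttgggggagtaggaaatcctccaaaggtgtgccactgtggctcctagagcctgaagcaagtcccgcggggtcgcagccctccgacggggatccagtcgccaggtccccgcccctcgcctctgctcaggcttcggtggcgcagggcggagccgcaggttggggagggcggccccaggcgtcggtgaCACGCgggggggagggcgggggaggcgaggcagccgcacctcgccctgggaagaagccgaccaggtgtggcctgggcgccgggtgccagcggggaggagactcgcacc
Vamp8: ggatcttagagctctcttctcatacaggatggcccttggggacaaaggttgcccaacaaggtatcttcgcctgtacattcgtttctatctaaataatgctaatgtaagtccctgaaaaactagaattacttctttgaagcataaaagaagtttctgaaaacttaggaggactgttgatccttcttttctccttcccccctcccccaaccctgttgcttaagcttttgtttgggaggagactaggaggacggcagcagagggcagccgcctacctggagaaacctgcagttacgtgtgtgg
A match of these letters is not a site, and the absence of one says only that they are not in this window.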

How the data were processed

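The deposited signal values are counts that the authors trimmed with Trim Galore, aligned to mm10 with STAR and normalized with TMM in edgeR to CPM for 15423 genes. In the 30 F2 embryos every nonzero value (100%) was a whole number of reads to within 0.05 of a read, which gave back the reads for count tests. The main test was limma 3.58.1 in R 4.3.3 on log2(normalized count + 0.5), with the variance allowed to follow the mean, over genes with a mean of at least 0.5, in 1 fit of 8 sex-by-dose groups, with Benjamini-Hochberg adjustment at 0.05. Tests against F1 and F3 used 1 fit of the 53 XY embryos in 12 groups. Count tests were edgeR 4.0.16, by likelihood ratio and quasi-likelihood, and DESeq2 1.42.0, and for the XY fit they left out 1 F3 embryo whose reads could not be recovered. The likelihood ratio test called 79 genes, quasi-likelihood 3 and DESeq2 69 in the main comparison.

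Named genes are up to 15 called genes of smallest p in each direction, Dsp, S100a10 and Vamp8, the called and the 2 most abundant members of each of 30 gene lists, and set germ cell fate and Ahr genes. Hist1h2bc and Clca1, the other members of lists named by value (such as Sox9, Amh, S100a11, Vamp5, Mael and Gstm1), Snx1, Pnldc1, Nxf2, the Xlr5 genes, Rrad and Phlda2 were named after their values were seen. The genes, lists and members were chosen with earlier results of these data known. Embryos of a group were checked for copies, and in 18 pairs chi-square divided by its degrees of freedom was 9.24 or more. The other settings tried were pseudocounts of 0.1 and 1, a mean of at least 5 or no filter, the count tests, the compared groups alone, upper quartile scaling, robust moderation, array weights, dam as a random block, a paired fit within dams for XY against XX, and leaving out each embryo.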

Additional observations from a re-analysis of the deposited data

Results flagged for a closer look

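Among the 6 vehicle embryos, 85 genes and 30 list sums were checked for an embryo far from the others, by its gap to the nearest embryo as a share of the whole range, and 6 genes and 5 sums passed. Chance flags about 1 in 20 groups. D3001.1 stood apart for Dppa4 (272 against a nearest 405, share 0.7), Vim (66.8 against 32.6, share 0.653), Kitl (26.5 against 11.1, share 0.653) and the summed Ahr list (161 against 174, share 0.66). D2991.3 stood apart for Hba-a1 and Hba-a2, which have the same values (707 against 36.9, share 0.948), and for the summed erythroid list (1665 against 85.2, share 0.949). D3133.5 stood apart for Nphs1 (25.2 against 18.3, share 0.635) and for the summed G1 arrest list (992 against 830, share 0.718), p53 target list (889 against 825, share 0.634) and mast cell list (60 against 41.5, share 0.658).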

How the results depend on the processing

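Of 218 counts recomputed 181 stayed within 1.5 times, and 37 moved. Of 1831 values of 84 named genes 1647 kept direction and side of the threshold, 172 lost a call, 12 gained one and 0 called values reversed; 85 sign changes of uncalled genes were not counted as reversals. The count of lower genes, 19, was 12 with a mean of at least 5, where fewer genes were tested, 0 in the compared groups alone, 61 by likelihood ratio, 1 by quasi-likelihood, 58 by DESeq2 and 116 with array weights. Genes higher, 0 in limma with 1253 genes in either direction at an unadjusted p under 0.05, were 2 without a filter, 18 by likelihood ratio, 2 by quasi-likelihood, 11 by DESeq2 and 6 with array weights. The looser rule gave 102 higher and 241 lower with a mean of at least 5. Genes differing from 2 mg/kg-day were 1 without a filter, and from 0.033 mg/kg-day 1 with a pseudocount of 0.1, 6 by likelihood ratio, 12 by DESeq2 and 198 with array weights. The effect differed between XY and XX in 1 gene by likelihood ratio, and between F2 and F3 in 1 by likelihood ratio, 1 by DESeq2 and 192 with array weights. Without D2996.2 and D3001.1, an alternative chosen after seeing the data, 0 genes were lower and 543 higher at the looser rule, and 47.4% of looser calls were lower. The cause was not tested.

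Leaving out each embryo in turn gave 0 to 215 lower and 0 to 28 higher genes, and 447 to 885 lower and 100 to 429 higher at the looser rule. It gave 0 to 126 genes against 0.033 mg/kg-day, 0 to 8 for XY against XX, and 0 to 0 against 2 mg/kg-day, F3 and F1. For the main comparison no paired analysis was possible because its groups come from different dams. For XY against XX, the paired fit within dams, added after seeing the data, gave 0 genes in limma, with 729 at an unadjusted p under 0.05. Genes such as Kcne1, on 0 to 19 reads, are limited by depth.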
